A study of Homo sapiens with 8 samples.

Results

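The genes described here make prostaglandins and leukotrienes, and were followed in MOLM-13, an established human line of acute myeloid leukemia with monocytic features. The set was a list of 10 named genes out of 58735 Ensembl gene IDs counted: PTGDS, HPGDS, PTGS1, PTGS2, PTGES, TBXAS1, ALOX5, ALOX5AP, LTA4H and LTC4S. The list was chosen by function and by the measured CPM of PTGDS, which stood highest in course 1, so the PTGDS values are given as a description and without a test. The study concerned resistance to the alkylating agent busulfan. The 4 libraries used here came from cells without busulfan, 1 library each: untreated parental cells (replicate 2, at most 20 passages), and cells carried through 1, 3 or 5 treatment courses with the vehicle DMSO (dimethyl sulfoxide, 1%). All 4 were grown in RPMI medium with fetal bovine serum, penicillin and streptomycin. No passage number is given for the DMSO cultures, so time in culture and number of courses cannot be told apart, and nothing in the labels names replicate cultures. Not analysed here were parental replicate 1 and the cultures given busulfan.

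Eicosanoids are signalling lipids made from arachidonic acid, which phospholipases release from membranes. Cyclooxygenases turn it into prostaglandin H, from which separate terminal synthases make prostaglandins D, E and I and thromboxane. In the other branch, 5-lipoxygenase works with an activating membrane protein to make leukotriene A, which a hydrolase turns into leukotriene B and a glutathione-conjugating synthase into leukotriene C. Monocytes, neutrophils, mast cells and platelets are known for these products. In a bulk culture, fewer cells of a type and less RNA per cell cannot be told apart.

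The 4 libraries held 44795976 to 56825811 gene counts. Levels are given as CPM, counts scaled to a common library size after TMM correction, and intervals are exact 95% intervals that cover counting error only, since no library had a replicate. Among the 10710 genes whose mean reached 5 CPM, log2 levels differed least between courses 3 and 5 (SD 0.30) and most between courses 1 and 5 (SD 0.83), with SDs of 0.53 to 0.69 for the other 4 pairs. Of 9 markers of the myeloid line, 8 were above 1 CPM in each library, with MPO at 336 to 932 CPM and CD33 at 189 to 239 CPM. CD14, a marker of mature monocytes, was at 0.302 to 0.997 CPM.

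Start sites of 9 of the 10 genes were found in RefSeq (GRCh38.p14), as stretches from 250 bases before to 50 bases after the start. The 4 shown are those of the 3 genes with the widest range of levels between libraries among the genes that passed the low-count filter, PTGDS, PTGS1 and LTC4S, and of ALOX5AP, the gene with the highest level. They are written 5′ to 3′ on the gene's strand, and capitals mark matches, on either strand, to any of 7 motifs: the TATA box (TATAAA), the GC box (GGGCGG), the hypoxia response core (ACGTG), the E-box (CANNTG), the AP-1 motif (TGANTCA), the ETS core (AGGAAG) and the GATA motif (AGATAA). PTGS1 has a second start in RefSeq, not shown.
PTGDS, chr9:136977254-136977553, plus strand: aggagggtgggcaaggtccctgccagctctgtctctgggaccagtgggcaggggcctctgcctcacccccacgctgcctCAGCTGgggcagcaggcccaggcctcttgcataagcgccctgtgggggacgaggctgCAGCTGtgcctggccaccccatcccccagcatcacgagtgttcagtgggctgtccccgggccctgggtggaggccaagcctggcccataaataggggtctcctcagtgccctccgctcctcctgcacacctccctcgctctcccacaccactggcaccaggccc
PTGS1, chr9:122370283-122370582, plus strand: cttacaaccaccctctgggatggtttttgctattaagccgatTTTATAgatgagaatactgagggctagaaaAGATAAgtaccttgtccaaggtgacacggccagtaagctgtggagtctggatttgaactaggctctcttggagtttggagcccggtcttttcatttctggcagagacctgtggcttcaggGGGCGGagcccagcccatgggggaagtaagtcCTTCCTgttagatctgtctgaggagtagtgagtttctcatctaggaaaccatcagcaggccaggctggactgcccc
LTC4S, chr5:179793736-179794035, plus strand: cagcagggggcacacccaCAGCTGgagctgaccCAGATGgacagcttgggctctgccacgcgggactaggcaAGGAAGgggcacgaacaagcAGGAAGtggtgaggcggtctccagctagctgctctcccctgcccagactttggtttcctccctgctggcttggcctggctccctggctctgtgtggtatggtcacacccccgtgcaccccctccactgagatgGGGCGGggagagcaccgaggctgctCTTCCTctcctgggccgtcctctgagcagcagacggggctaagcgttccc
ALOX5AP, chr13:30713235-30713534, plus strand: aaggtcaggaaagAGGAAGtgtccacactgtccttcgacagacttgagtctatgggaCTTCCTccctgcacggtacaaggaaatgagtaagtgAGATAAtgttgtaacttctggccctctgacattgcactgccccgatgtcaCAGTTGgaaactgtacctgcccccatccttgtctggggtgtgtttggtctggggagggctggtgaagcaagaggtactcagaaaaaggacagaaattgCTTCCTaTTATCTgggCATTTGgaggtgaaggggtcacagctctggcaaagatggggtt
PTGDS held 2 matches to the E-box CANNTG and none to the other motifs. The ETS core AGGAAG, found in 33.6% of 35116 RefSeq stretches of this length, was matched 3 times in ALOX5AP, 3 times in LTC4S and 1 time in PTGS1. The GATA motif AGATAA (10.3% of all stretches) was matched 2 times in ALOX5AP and 1 time in PTGS1. ACGTG, the core of the hypoxia response element (21.4% of all stretches), and the AP-1 motif TGANTCA (7.71%) were matched in none of the 4, and CANNTG (68.7%) 2 times each in PTGDS, LTC4S and ALOX5AP. CANNTG and ACGTG overlap where a site reads CACGTG, which occurred in none of the 4. GGGCGG (45.0%) was matched 1 time each in PTGS1 and LTC4S, and TATAAA (11.5%) 1 time in PTGS1. These matches are letters in a window and show no binding.

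PTGDS encodes the lipocalin-type prostaglandin D synthase, a secreted enzyme that also carries lipophilic ligands. It stood at 14.97 CPM in the parental library (886 counts, interval 14.0 to 16.0), 95.7 CPM in course 1 (4123 counts, 92.8 to 98.7), 23.3 CPM in course 3 (1172 counts, 22.0 to 24.7) and 14.0 CPM in course 5 (636 counts, 12.9 to 15.1). Course 1 was thus high, course 3 was slightly above the parental library, and the parental and course 5 libraries did not differ beyond counting error. The log2 ratio of course 1 to the parental library was 2.68 (2.57 to 2.78), a 6.39-fold difference. That of course 3 was 0.64 (0.51 to 0.77) and that of course 5 was -0.10 (-0.25 to 0.05). Course 5 was 6.86-fold below course 1. An overlapping gene on the same strand, AL807752.7, covers 23.4% of the exon bases of PTGDS and was itself listed at 0 in each library. Reads in the shared part belong to no single gene, so the level of PTGDS is a low estimate.

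HPGDS encodes the hematopoietic prostaglandin D synthase, a glutathione S-transferase relative that makes the same product in mast cells and megakaryocytes. It had 0 counts in the parental library, 0 in course 1, 4 in course 3 (0.0796 CPM, interval 0.0217 to 0.204) and 0 in course 5. For a count of 0 the exact interval reached up to 0.0623 to 0.0856 CPM in these libraries. The 4 counts of course 3 are near that limit, and no difference between libraries was detectable. Of the prostaglandin D synthases, PTGDS was therefore the one with more than a few counts.

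The cyclooxygenases catalyse the first committed step. PTGS1, the constitutive cyclooxygenase, stood at 40.0 CPM in the parental library (2367 counts), 60.0 CPM in course 1 (2587 counts), 18.4 CPM in course 3 (923 counts) and 13.0 CPM in course 5 (590 counts). The order was course 1, parental, course 3, course 5, and each neighbouring pair differed beyond counting error. The log2 ratio to parental cells was 0.59 (0.50 to 0.67) after 1 course, -1.12 (-1.23 to -1.01) after 3 and -1.63 after 5 (-1.76 to -1.50). Course 5 was 3.09-fold below the parental library and 4.64-fold below course 1. No exon base of PTGS1 is shared with another gene on its strand (0.0%).

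PTGS2, the cyclooxygenase induced by cytokines and growth factors, was low. It stood at 4.01 CPM in the parental library (237 counts), 5.22 CPM in course 1 (225 counts), 3.29 CPM in course 3 (165 counts) and 2.44 CPM in course 5 (111 counts). The order was the same as that of PTGS1, in a narrower range, and the parental and course 3 libraries did not differ beyond counting error (log2 ratio -0.29, -0.58 to 0.01). The log2 ratio of course 5 to the parental library was -0.72 (-1.06 to -0.39). Per kilobase of exon, PTGS1 was above PTGS2 in each library, at 6.91 against 0.760 CPM per kb in the parental cells and 2.24 against 0.462 CPM per kb in course 5.

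**Figure D1:**
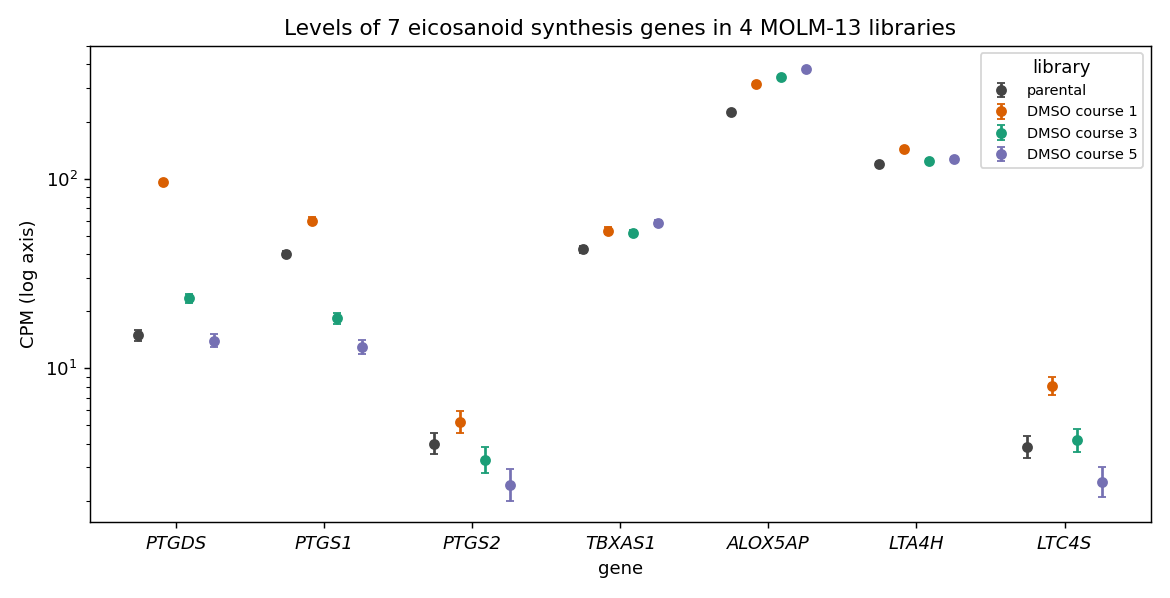
CPM on a log axis for the 7 genes of the set that passed the low-count filter, with 1 point per library and bars for the exact 95% counting interval. PTGDS in course 1 stands at 95.7 CPM above 14.0 to 23.3 CPM in the other libraries, PTGS1 is lower in courses 3 and 5, and ALOX5AP and LTA4H lie above 100 CPM throughout.

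Among the other terminal prostanoid synthases of the set, PTGES encodes the inducible, microsomal prostaglandin E synthase. It had 13 counts in the parental library (0.220 CPM, 0.117 to 0.376) and 0 in each DMSO library. With 3 counts put in for each 0, PTGES was 3.16-fold lower in course 1, 3.68-fold in course 3 and 3.34-fold in course 5. All these levels were far below 1 CPM. These folds take the 13 parental counts as exact, and with their counting error the log2 ratios were at most -1.15, -1.37 and -1.23. TBXAS1, the thromboxane synthase of monocytes and platelets, stood at 42.4 CPM in the parental library (2508 counts), 53.1 CPM in course 1 (2290 counts), 51.6 CPM in course 3 (2590 counts) and 58.3 CPM in course 5 (2658 counts). Its range was narrow, with the parental library lowest, and courses 1 and 3 did not differ beyond counting error (log2 ratio -0.04, -0.13 to 0.04). The log2 ratios to the parental library were 0.33, 0.28 and 0.46 in courses 1, 3 and 5.

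In the leukotriene branch, ALOX5, the gene of 5-lipoxygenase, was listed at 0 counts in all 4 libraries. This 0 cannot be read as absence. TUBB and TAF9, which encode a tubulin and a general transcription factor subunit that every cell uses, were listed at 0 in all 4 libraries too. Reads set aside as aligned to more than 1 place were 21.3% of all reads in course 5, and 13.9% to 15.4% in the other libraries. Whether this share bears on the levels of course 5 was not tested. No level of ALOX5 is therefore given. Other genes listed below at 0 in all 4 libraries may have the same limit, which was not tested, so their 0 is not read as absence either.

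ALOX5AP encodes the 5-lipoxygenase activating protein, which hands arachidonic acid to the lipoxygenase at the nuclear membrane. It stood at 224 CPM in the parental library (13227 counts), 317 CPM in course 1 (13658 counts), 342 CPM in course 3 (17161 counts) and 379 CPM in course 5 (17285 counts). The 4 libraries stood in the order of the courses, and each step was beyond counting error. The log2 ratios to the parental library were 0.50 (0.47 to 0.54), 0.61 (0.58 to 0.64) and 0.76 (0.73 to 0.80) in courses 1, 3 and 5, and the last corresponds to 1.70-fold. No course reached 2-fold.

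LTA4H, the hydrolase that makes leukotriene B and also trims peptides, varied least among the 5 genes with mean CPM of 5 or more. It stood at 120 CPM in the parental library (7105 counts), 143 CPM in course 1 (6177 counts), 124 CPM in course 3 (6251 counts) and 127 CPM in course 5 (5803 counts). Courses 3 and 5 did not differ beyond counting error, and the log2 ratio of course 3 to the parental library, 0.05, became -0.02 on total library sizes. LTC4S, the leukotriene C synthase, stood at 3.85 CPM in the parental library (228 counts), 8.05 CPM in course 1 (347 counts), 4.18 CPM in course 3 (210 counts) and 2.52 CPM in course 5 (115 counts). Course 1 was high and course 5 low, while course 3 and the parental library did not differ beyond counting error (log2 ratio 0.12, -0.16 to 0.39). The log2 ratio of course 1 to the parental library was 1.06 (0.82 to 1.31), 2.09-fold, and course 5 was 3.19-fold below course 1. On total library sizes the course 1 ratio of LTC4S was 0.95, under 2-fold. The mean of LTC4S was 4.65 CPM, just under the minimum of 5 CPM used for calls.

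**Figure D2:**
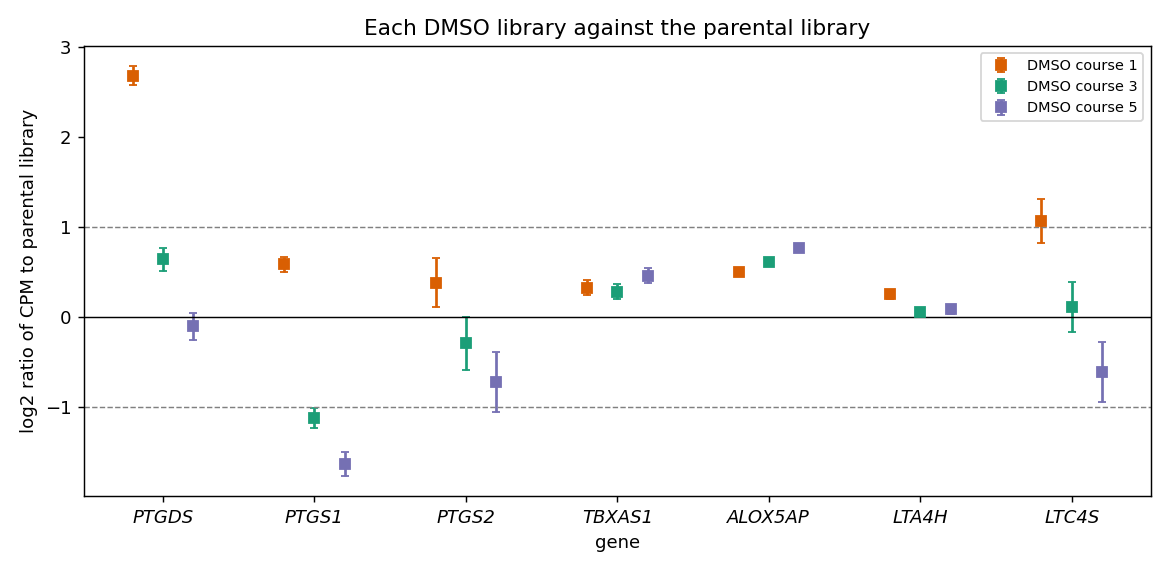
Log2 ratio of CPM in each DMSO library to the parental library for the same 7 genes, with exact 95% counting intervals and dashed lines at a 2-fold difference. PTGDS (2.68) and LTC4S (1.06) lie above the upper line in course 1, and PTGS1 lies below the lower line in courses 3 (-1.12) and 5 (-1.63).

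Levels of different genes were compared per kilobase of exon not shared with another gene on the strand, as the mean over the 4 libraries. ALOX5AP was highest at 184 CPM per kb, followed by PTGDS at 17.8, LTA4H at 17.5, TBXAS1 at 8.28, PTGS1 at 5.67, LTC4S at 3.90 and PTGS2 at 0.709 CPM per kb. The place of PTGDS rested on course 1, where it stood at 46.1 CPM per kb against 6.72 to 11.2 in the other libraries. Exon lengths include all annotated transcripts, which makes the values of genes with long alternative exons low.

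Each DMSO library was compared with the parental library by 1 measure: a ratio of at least 2-fold, with a counting interval that excludes 1, in a gene with a mean of at least 5 CPM. Of the 10 genes, 5 had that mean. In course 1, 1 of these 5, PTGDS, was higher and 0 were lower, where 3.7% of all 10710 genes were higher and 4.18% lower. In course 3, 1 gene was lower, PTGS1 (2.34% of all genes lower, 2.23% higher), and in course 5 again 1 was lower, PTGS1 (4.92% of all genes lower, 2.96% higher). In course 3 against course 1, PTGDS and PTGS1 were lower, so 2 of 5 were called, where 8.72% of all genes were (3.9% higher, 4.82% lower). In course 5 against course 1, the same 2 were lower, where 16.2% of all genes were called (7.14% higher, 9.08% lower). Between courses 3 and 5, 0 of the 5 were called, where 0.99% of all genes were (0.0747% higher and 0.915% lower in course 5). These comparisons share libraries, so their counts are not independent. The choice of the set used the course 1 level of PTGDS, and nothing is read from the counts that include PTGDS. Without PTGDS, 1 of 4 genes, PTGS1, was called in course 3 against course 1, and likewise in course 5 against course 1. In course 1 against the parental library, 0 of these 4 were called.

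The 5 genes had a median log2 ratio to parental cells of 0.50, 0.28 and 0.08 after 1, 3 and 5 courses, against 0.02, 0.01 and 0.03 over all 10710 genes. Without PTGDS it was 0.42, 0.17 and 0.27 over 4 genes. The range of log2 levels over the 4 libraries was 2.77 for PTGDS and 2.21 for PTGS1, wider than in 98.3% and 97.0% of the 10710 genes. The PTGDS range rests on the course 1 level used in choosing the set, so its rank is a description only. The range was 0.76 for ALOX5AP, 0.46 for TBXAS1 and 0.26 for LTA4H, where the median gene had 0.60.

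**Figure D3:**
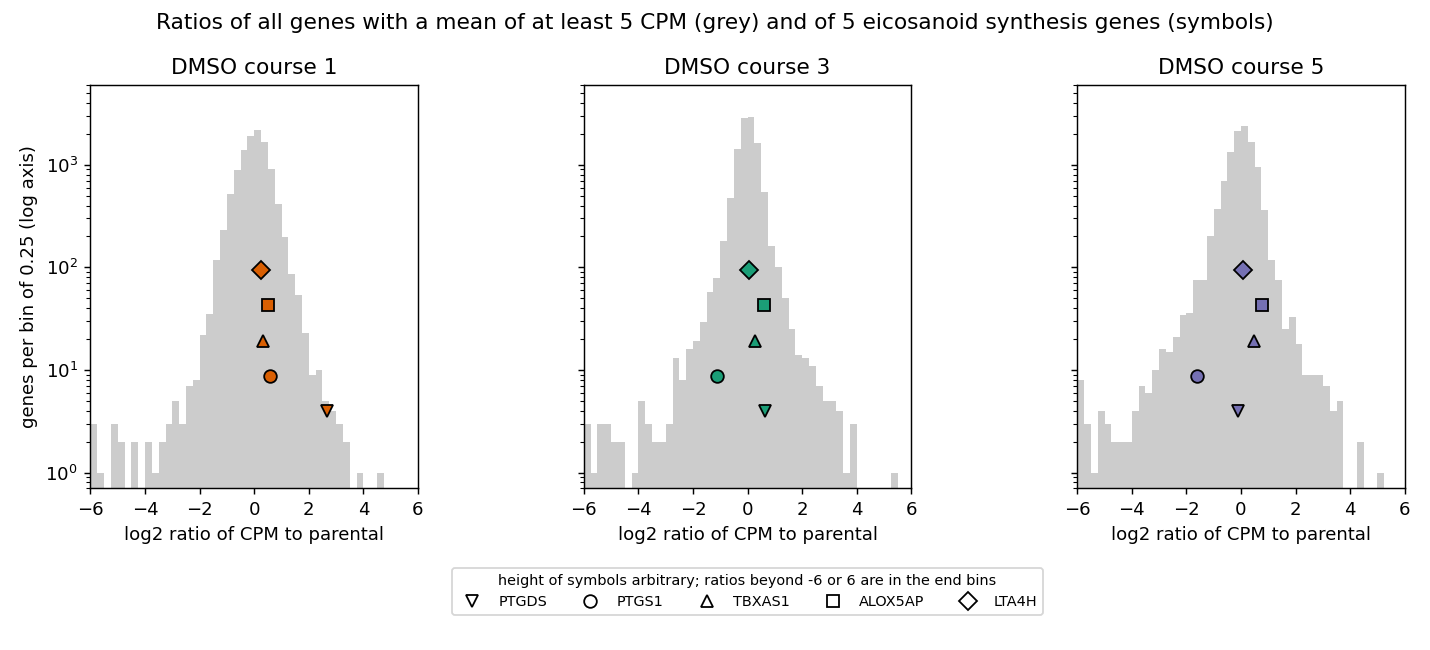
Number of genes (log axis) by log2 ratio to the parental library in bins of 0.25, for 10710 genes with mean CPM of 5 or more (grey), with the ratios of 5 genes of the set as symbols whose height is arbitrary. PTGDS lies in the upper tail in course 1 (2.68) and at the centre in course 5 (-0.10), PTGS1 lies in the lower part in courses 3 and 5, and the other 3 stay within 0.05 to 0.76.

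Fits over all genes asked whether the 3 DMSO libraries together differed from the parental library, and whether levels followed 0, 1, 3 and 5 courses. Besides PTGDS, 6 genes of the set passed the low-count filter. None of the 6 passed edgeR's quasi-likelihood test after Benjamini-Hochberg adjustment, in either fit, and 0 of all 18612 genes did (0.0%). At an unadjusted p under 0.05 it was 1 of the 6 in the pooled fit, where 5.61% of all genes were, and 2 of the 6 in the trend, where 15.8% were. The smallest adjusted p was 0.878 in the pooled fit, for ALOX5AP (log2 fold change 0.63, SE 0.238, higher in 3 of 3 DMSO libraries). In the trend it was 0.212, for PTGS1 (slope -0.43 log2 units per course, SE 0.107), and ALOX5AP had a slope of 0.13 (SE 0.0498, edgeR adjusted p = 0.309). DESeq2's Wald test passed PTGS1 in the trend (adjusted p = 0.00288) and called 888 of all genes there, while in the pooled fit it called 209 genes and 0 of the set. limma-voom called 0 genes in both fits. The fits had 2 residual degrees of freedom, and the spread they measure is that between libraries of different courses.

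The pooled value of PTGS1 moved with course 1. Without it, the log2 fold change of PTGS1 went from -0.39 to -1.35, in a fit with 1 residual degree of freedom. The spread in that fit is the difference between courses 3 and 5 alone, the closest pair of libraries. Its p-values do not show a firmer difference from parental cells and are not given. The fits that follow also have 1 residual degree of freedom. In the trend without course 1, the slope was -0.33 for PTGS1 and 0.16 for ALOX5AP. When the parental library was left out of the trend, the slope was -0.56 for PTGS1, -0.28 for PTGS2 and -0.42 for LTC4S. The genes of the set are named here because these fits called them. Such calls were common over all genes in these fits, so nothing is read from them.

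Other genes of eicosanoid supply, synthesis, clearance and reception were taken from 8 lists with 64 genes, of which 37 had a mean of at least 5 CPM. Against the parental library, 6 were at least 2-fold higher and 3 lower in course 1, 4 higher and 2 lower in course 3, and 3 higher and 4 lower in course 5. These are 24.3%, 16.2% and 18.9% of the 37, where 7.88%, 4.58% and 7.88% of all genes were called. The median log2 ratio of the 37 was 0.14, 0.01 and 0.05, against 0.02, 0.01 and 0.03 over all genes. In the fits, 0 of the 47 list genes that passed the low-count filter passed edgeR's test in either direction. At an unadjusted p under 0.05 it was 9 of 47 in the pooled fit, where 5.61% of all genes were, and 10 of 47 in the trend, where 15.8% were.

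The gene with the widest range among them was ALOX12, the platelet-type 12-lipoxygenase, which makes hydroxy fatty acids from arachidonic acid. It stood at 348 CPM in the parental library (20617 counts), 40.6 CPM in course 1 (1750 counts), 29.1 CPM in course 3 (1463 counts) and 10.9 CPM in course 5 (498 counts). The parental library was far above all 3 DMSO libraries. The log2 ratios were -3.10 (-3.17 to -3.03), -3.58 (-3.66 to -3.50) and -5.00 (-5.13 to -4.87), which is 31.9-fold in course 5. An antisense gene, ALOX12-AS1, overlaps it, and the reads were counted by strand as far as the file labels tell. ALOX12 did not pass edgeR's test (adjusted p = 0.418 in the pooled fit, log2 fold change -3.70, SE 0.641, lower in 3 of 3 DMSO libraries). It was the 1 of 5 genes in the list of other lipoxygenases with a mean of at least 5 CPM.

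In the list of arachidonate release, 8 of 12 genes had a mean of at least 5 CPM, and 2 were higher in each DMSO library. The calcium-independent phospholipase gene PLA2G4C stood at 7.27, 16.3, 18.0 and 15.6 CPM in parental cells and after 1, 3 and 5 courses, and the diacylglycerol lipase gene DAGLA at 3.68, 7.75, 8.58 and 7.90 CPM. In course 3, 1 gene was lower, the monoacylglycerol lipase gene MGLL (9.21 CPM in parental cells, 4.20 CPM in course 3), which is named after its values were seen. MGLL in course 5, at 4.61 CPM, just missed the 2-fold limit (log2 ratio -0.999). The lysosomal phospholipase gene PLA2G15 stood at 35.4, 58.0, 23.8 and 19.9 CPM, highest in course 1 and lowest in course 5 as PTGS1 was, and PLA2G6 at 34.8, 45.9, 28.0 and 20.0 CPM. In the list of activation and reacylation, 7 of 8 genes had that mean, and 1 was higher in courses 3 and 5. This was LPCAT2, an acyltransferase of membrane lipids, at 50.5, 87.4, 104.5 and 101.5 CPM. ACSL3, ACSL5 and MBOAT7, which activate fatty acids or return them to phospholipids, were within 2-fold of the parental library.

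Among the 7 other prostanoid synthases, PRXL2B was listed at 0 in all 4 libraries, as ALOX5 was, so no level of it is given. Of the 7, 5 had a mean of at least 5 CPM, and 2 were lower in course 1. The prostaglandin E synthase gene PTGES2 stood at 55.4, 23.8, 45.2 and 51.1 CPM, and the prostacyclin synthase gene PTGIS at 9.35, 4.34, 10.7 and 12.4 CPM. Course 1 was thus low in these 2 synthases and high in PTGDS. PTGES3, a further prostaglandin E synthase gene that is named after its values were seen, had the highest CPM of this list. It stood at 296, 254, 268 and 306 CPM, with a log2 ratio of course 1 to the parental library of -0.22, and was not called. The reductase genes CBR1 (57.4, 34.1, 41.9 and 49.3 CPM) and AKR1B1 (22.0, 14.2, 17.0 and 22.4 CPM) were lowest in course 1 too, within 2-fold. MGST1, MGST2 and MGST3, membrane enzymes of the same family as LTC4S and ALOX5AP, were within 2-fold in all 3 courses, and MGST1 stood at 128, 141, 157 and 178.5 CPM.

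Among genes of export, conversion and clearance, 7 of 13 had a mean of at least 5 CPM. GGT5, which removes glutamate from leukotriene C, stood at 18.0, 40.8, 12.6 and 3.75 CPM, and DPEP2, a dipeptidase that acts on the next product, at 27.6, 35.9, 20.2 and 13.4 CPM. Both were highest in course 1 and lowest in course 5, as LTC4S was, and they were the 2 genes of this list at least 2-fold below the parental library in course 5. GGT1, whose reads may be split with near-identical copies, stood at 15.4, 23.9, 11.6 and 9.37 CPM in the same order. PTGR1, a reductase of prostaglandins and leukotriene B, and the epoxide hydrolase EPHX2, both named after their values were seen, were 2.33-fold and 2.11-fold higher in course 1. PTGR1 stood at 8.15, 19.0, 17.5 and 16.2 CPM and EPHX2 at 9.60, 20.3, 16.7 and 13.7 CPM, so both were above parental cells in all 3 courses, and PTGR1 was also past 2-fold in course 3 (2.14-fold). The exporter gene ABCC4 stood at 49.3, 30.0, 57.6 and 78.4 CPM, lowest in course 1. HPGD, which inactivates prostaglandins and is also named after its values were seen, had 0 to 2 counts.

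Receptor genes for prostanoids were mostly low, with 3 of 9 at a mean of at least 5 CPM. The prostacyclin receptor gene PTGIR stood at 11.7, 22.2, 9.68 and 5.05 CPM, the prostaglandin E receptor gene PTGER2 at 8.58, 18.8, 16.3 and 14.9 CPM and PTGER4 at 14.8, 14.5, 16.0 and 16.0 CPM. PTGER2 was at least 2-fold higher in course 1 and PTGIR at least 2-fold lower in course 5, while PTGER4 stayed nearly level. For prostaglandin D, the product of PTGDS, the receptor gene PTGDR had 0 counts in all 4 libraries and PTGDR2 stood at 0.338, 1.74, 2.17 and 2.04 CPM. The thromboxane receptor gene TBXA2R stood at 7.25, 8.35, 1.91 and 1.03 CPM, and both later courses were low. PTGDR, PTGDR2 and TBXA2R are named after their values were seen.

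Of the leukotriene receptor genes, 3 of 7 had a mean of at least 5 CPM and 0 were 2-fold apart from the parental library in any course. The leukotriene B receptor gene LTB4R stood at 66.0, 61.5, 66.6 and 54.7 CPM and LTB4R2 at 4.85, 4.04, 5.51 and 6.58 CPM. The receptor gene for cysteinyl leukotrienes, CYSLTR1, stood at 28.8, 23.4, 18.0 and 15.1 CPM, lower with each library in the order of the courses.

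**Figure D4:**
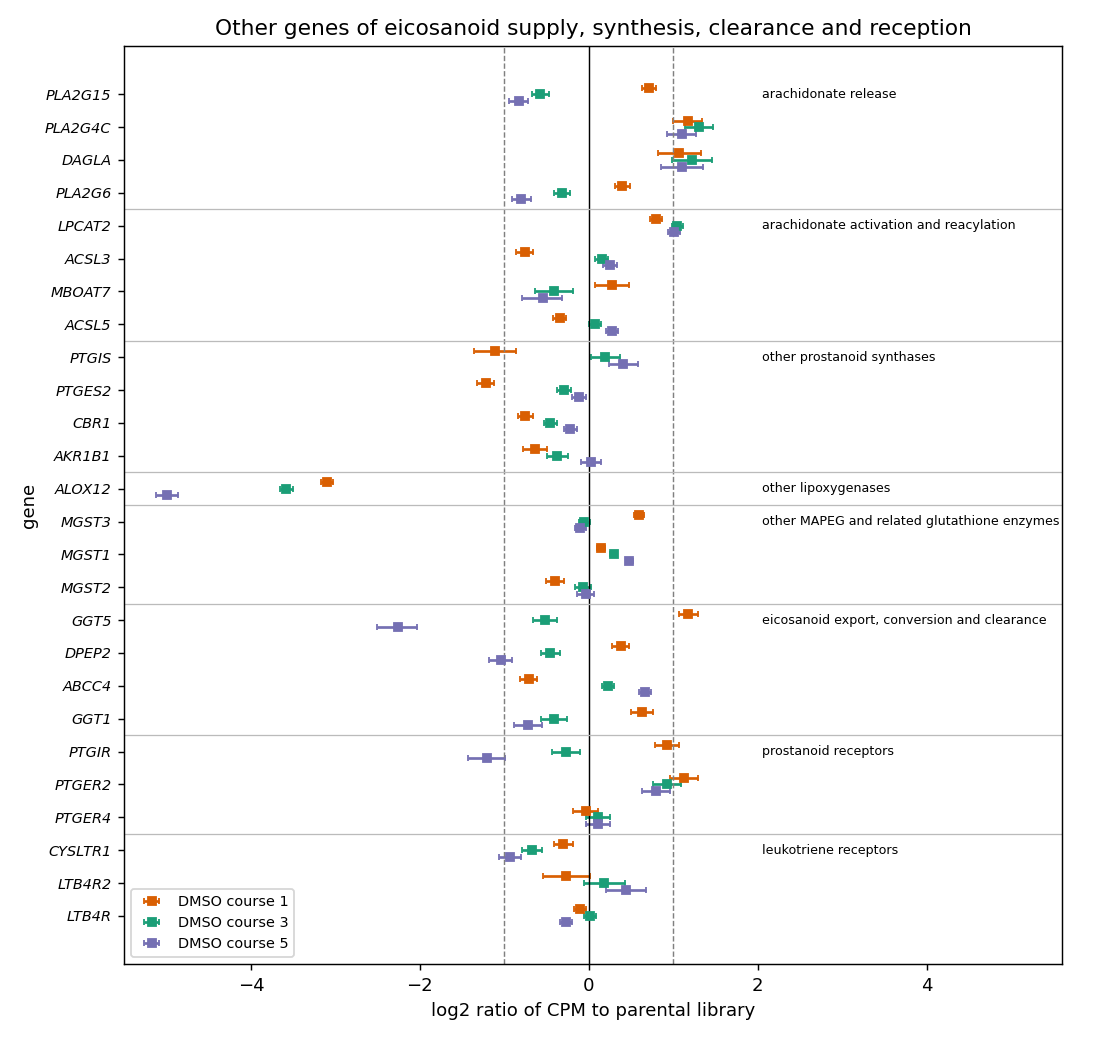
Log2 ratio of CPM to the parental library in each DMSO library for up to 4 genes per list, those with the widest range over the 4 libraries and a mean of at least 5 CPM, with exact 95% counting intervals and dashed lines at a 2-fold difference. ALOX12 lies below -3 in all 3 courses, PLA2G4C and DAGLA above the upper line in all 3, and GGT5 and PTGIR above 0 in course 1 and below 0 in course 5.

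The genes with the pattern most like that of PTGDS were sought among 9590 other protein-coding genes with mean CPM of 5 or more, by the root mean square difference of centred log2 levels over the 4 libraries. They were NAPSA (8.89, 40.2, 12.4 and 7.61 CPM in parental cells and after 1, 3 and 5 courses, difference 0.19), RGS16 (28.9, 156.4, 34.4 and 34.4 CPM, 0.28), RNASET2 (difference 0.34) and TBX6 (difference 0.35). For PTGS1 they were DENND4C (7.74, 11.5, 3.46 and 2.39 CPM, difference 0.02), VSIG10L (0.07), INSIG1 (99.4, 151.2, 51.0 and 35.4 CPM, difference 0.07) and LIMD1 (0.09). The likeness rests on 4 points per gene and is a description only.

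Markers of other blood cells that use these genes were read beside them. The 9 mast cell and basophil markers summed to 13.7, 56.0, 116.0 and 101.0 CPM in parental cells and after 1, 3 and 5 courses. Most of this was the tryptase gene TPSB2 (11.8, 50.2, 100.8 and 88.8 CPM), whose reads may be split with its near-identical neighbour TPSAB1. CPA3 and CMA1 were listed at 0 in all 4 libraries. KIT, with 33, 6, 4 and 2 counts, and IL1RL1, with 5 counts in parental cells and 0 in each DMSO library, stood the other way. TPSAB1 (0.845, 4.73, 13.5 and 11.2 CPM) was highest in course 3, as TPSB2 was. So were MS4A2 (3, 11, 27 and 23 counts) and HDC (16, 30, 48 and 16 counts), while FCER1A had 1, 0, 6 and 6 counts. The sum was highest in course 3, not in course 1 where PTGDS and LTC4S were highest. The 7 megakaryocyte and platelet markers summed to 4.80, 8.10, 3.98 and 2.46 CPM, almost all from ITGA2B, in the same order of libraries as PTGS1, and PF4, PPBP and GP6 were at 0 throughout. The 5 eosinophil markers summed to 32.2, 38.0, 30.8 and 22.0 CPM, also highest in course 1 and lowest in course 5, with CLC at 0 to 1 counts. PRG2 (17.0, 29.5, 24.1 and 11.2 CPM) was also highest in course 1 and lowest in course 5, but stood higher in course 3 than in parental cells, unlike the sum. EPX (12.9, 7.19, 5.91 and 10.1 CPM) and CCR3 (2.21, 1.21, 0.737 and 0.636 CPM) were highest in parental cells. The part of other cell types in the levels of PTGDS, PTGS1 and LTC4S was not tested. Erythroid markers summed to at most 0.717 CPM and stromal markers to at most 3.26 CPM. The 7 lymphocyte markers summed to 288 to 311 CPM, nearly all CD4, which monocytic cells express as well.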

How the data were processed

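Bulk RNA-seq (TruSeq RNA kit, Illumina HiSeq) was deposited as 1 file of raw read counts per library, per the labels' protocols and the files. The submitters' processing notes list FastQC 0.11.5, TopHat2 2.0.11, HTSeq 0.6p1 and hg19. Yet each of the 58735 IDs is in GENCODE release 29, a GRCh38 annotation, so the build is uncertain. File names point to reverse-stranded counting. Symbols and exon lengths come from GENCODE, promoters from RefSeq by symbol. The 5 summary rows (24.6% to 29.8% of reads) were left out.

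From these deposited counts, R 4.3.3 ran edgeR 4.0.16 (TMM, filterByExpr with minimum count 10 and total 15, quasi-likelihood test, adjusted p under 0.05), limma 3.58.1 and DESeq2 1.42.0. SEs were taken from the log2 fold change and the F statistic. Single libraries were compared without a test, by exact binomial intervals on ratios and exact Poisson intervals on levels. For folds, 3 counts stood in for a count of 0. Pattern likeness used log2 CPM with prior count 2. The functions were tested on simulated data. Since nothing in the labels names separate cultures as replicates, the p-values reflect only how these libraries vary, which may be technical.

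The genes of the set and all lists were chosen with earlier results of these data known. Named are all 10 genes, up to 4 per list by range, and 4 alike for PTGDS and for the other gene with the widest range. Alternatives were other scalings, filters, folds, tools and leaving out libraries.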

Additional observations from a re-analysis of the deposited data

How the results depend on the processing

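Without replicates, single-library intervals cover counting error only, and genes with few counts (HPGDS, PTGES) are limited by depth. TMM, total and DESeq2 scaling gave the same counts of genes of the set past 2-fold. LTC4S, whose mean kept it out of these counts, went from a course 1 log2 ratio of 1.06 to 0.95 on total library sizes. On that scaling the course 1 ratios of PTGDS (2.56), PTGS1 (0.47), TBXAS1 (0.21), ALOX5AP (0.39) and LTA4H (0.14) fell below their TMM counting intervals. With a mean of at least 1 CPM, 2 genes of the set were called in course 1 against the parental library and 4 in course 5 against course 1. At 1.5-fold the minimum stayed at 5 CPM, so 5 genes of the set were compared. Of these 5, 2, 3 and 2 were called in courses 1, 3 and 5 against the parental library. In course 5 against course 3, 1 of the 5 was called. Over all genes, the minimum of 1 CPM gave 1429, 1045 and 1571 calls in courses 1, 3 and 5 against the parental library, 1533 and 2656 in courses 3 and 5 against course 1, and 336 in course 5 against course 3. In the same order, 1.5-fold gave 2846, 1399, 2489, 2767, 4070 and 543 calls, each out of 10710 genes. Calls were thus common over all genes at 1.5-fold. The number of genes that the 1 CPM minimum let in is not given, so no share is stated for it. PTGDS was among the genes of the set compared under both settings, and nothing is read from these counts.

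Without a filter on low counts, edgeR called 13 genes in the pooled fit and 134 in the trend, and DESeq2's Wald test called 209 and 888, with 1 gene of the set (PTGS1) in the trend. Leaving out 1 library at a time gave 25 to 1578 genes in the pooled fit, with 0 to 1 of the set, and 5 to 3642 in the trend, with 0 to 3 of the set. The main fits held 18612 genes, so the larger of these counts are a sizeable share of all genes. The fits with 1 library left out had 1 residual degree of freedom, and where a group was left with 1 library it was taken to vary like the others. Over them, the pooled log2 fold change ranged from -0.20 to 0.66 for LTC4S and from -0.48 to 0.083 for PTGS2, and the trend slope from -0.048 to 0.017 for LTA4H, so these directions were not stable. The cause was not tested. No paired analysis was possible because each group holds 1 library and the labels give the DMSO libraries no replicate numbers.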
